A study of Mus musculus with 6 samples.

Results

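The 10 genes described here, App, Mmp9, Timp1, Ptpn5, Gsk3a, Gsk3b, Pik3cb, Agap2, Bmpr2 and Dgkk, encode proteins that have been studied as targets in fragile X syndrome. They were taken by gene name from the count table of 55367 genes by a rule that uses no measured value, although the list was drawn up with earlier results of these data known, and all 10 were found and had enough counts to be tested among 16976 genes. RNA was sequenced from cortical neurons of mouse pups at postnatal day 1 that had been cultured for 2 days, in 3 WT libraries and 3 libraries from Fmr1-KO mice, which lack FMRP. Both genotypes were on the C57BL/6J background, and no other allele, drug or time point was compared. According to the study's methods, the dissociated cells had been passed through a strainer and depleted of ACSA2+ astrocytes and of myelin before plating. The labels name no animals, sexes or separate cultures, so P values measure the spread between these libraries.

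FMRP is an RNA-binding protein that represses the translation of many neuronal mRNAs, and its loss is the cause of fragile X syndrome. The proteins studied as targets fall into several groups: a phosphatase and kinases that act downstream of glutamate receptors (Ptpn5, Gsk3a, Gsk3b, Pik3cb, Agap2), a lipid kinase that removes diacylglycerol (Dgkk), a growth factor receptor (Bmpr2), a membrane protein that is cut by secretases (App), and an extracellular protease with its inhibitor (Mmp9, Timp1). Much of the interest in them concerns the amount or activity of the protein, whereas the counts measure mRNA.

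Short RNA words that FMRP has been reported to bind were searched in the coding sequence, because such a word lies in the mRNA whose level was measured. The words were GACAAG and GACAGG on the mRNA strand, which can share 1 base where they overlap. In the annotated transcript with the longest coding sequence, 8 of the 10 genes held at least 1 such word, 16 words in all, compared with 64.9% of 14521 coding genes that were tested. Counted per kb over the whole transcript, the words ranked among those genes at percentiles of 81.1 for Gsk3b, 72.3 for Ptpn5 and 58.0 for App. The others ranked lower, at 49.8 for Mmp9, 32.8 for Dgkk, 30.3 for Bmpr2, 24.8 for Pik3cb, 18.6 for Agap2 and 0 for Gsk3a and Timp1. For Gsk3b the transcript searched was 1.75 kb long, whereas its longest annotated transcript is 8.30 kb. Its rank thus rests on a short transcript, and the longer one was not searched. The 6 windows shown here come from the genes whose results are set against each other below, with the word in capitals and 12 bases on each side, from GRCm38 with GENCODE M21. They lie at chr16:85082836-85082865 on the minus strand (App), chr7:47089947-47089976 on the minus strand (Ptpn5), chr16:38144304-38144333 on the plus strand (Gsk3b), chr9:99064146-99064175 on the minus strand (Pik3cb), chr10:127083566-127085129 on the plus strand, joined across 2 exons (Agap2), and chrX:6906464-6906493 on the plus strand (Dgkk).

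App: cttctcgtgcccGACAAGtgcaagttccta

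Ptpn5: ctgcccccagagGACAGGcgtcaatcagtg

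Gsk3b: ggccagggtcctGACAGGccacaggaagtc

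Pik3cb: aaagaaatcttgGACAGGgaccccctgtct

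Agap2: gttgggacccaaGACAGGatcagtgcatca

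Dgkk: gtgagacccccaGACAAGccccgctgctga

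App held 4 coding words, and Ptpn5, Gsk3b, Pik3cb, Bmpr2 and Dgkk held 2 each. Agap2 and Mmp9 held 1 each, and Gsk3a and Timp1 held 0. Words were thus present in genes that were lower in Fmr1-KO (App, Ptpn5, Agap2, Dgkk) and in genes that did not pass the test (Mmp9, Gsk3b, Pik3cb, Bmpr2), and absent from 2 genes that were lower (Gsk3a, Timp1). A match is a description of the letters and not a measured binding site. For other words linked to FMRP, TGGA or AGGA, the density per kb of transcript ranked from the percentile of 6.65 for Gsk3a to 88.2 for Gsk3b among the same genes. The rank of Gsk3b again came from its 1.75 kb transcript.

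Total counts lay between 30348556 and 35126207 per library. Fmr1, the targeted gene, had a log2 fold-change of -0.98 in Fmr1-KO relative to WT, and its mean level in CPM (counts per 1e6 counts, scaled by the trimmed mean of M-values, TMM) was 50.6% of WT. Of 12 neuronal markers, 11 were lower and 1 was higher in Fmr1-KO, and their summed level was 5112 to 5239 CPM in WT and 4424 to 4626 in Fmr1-KO (for summed markers, CPM of the total count without TMM). All 8 markers of proliferating cells were higher, and all 8 of the oligodendrocyte lineage and 8 of 9 of microglia were lower. Of 8 neural progenitor markers, 4 were higher and 1 was lower, and their sum was 1746 to 1760 CPM in WT and 2074 to 2166 CPM in Fmr1-KO, with Eomes, a marker of intermediate progenitors, at 2.79 on the log2 scale. Of 8 astrocyte markers, 4 were lower and 2 were higher, and they summed to 5042 to 5153 CPM in WT and 4533 to 4900 in Fmr1-KO. Those sums were near the neuronal ones, so the levels below include RNA of glia as well as of neurons. In bulk RNA, fewer cells of a type and less RNA per cell cannot be told apart, and the part that these markers have in the results below was not tested except where a value is given.

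Of the 10 genes, 6 were lower in Fmr1-KO relative to WT, 0 were higher and 4 did not pass the test at an adjusted P under 0.05 in edgeR (quasi-likelihood, Benjamini-Hochberg over the whole table). The same rule called 21.9% of all genes lower and 20.7% higher. At an unadjusted P under 0.05 by edgeR, 7 of the 10 were lower and 0 were higher, and the share of all genes at that threshold was not computed. At an adjusted P under 0.05, DESeq2 called 4 of the 10 lower and 0 higher. Over the 16309 genes to which it gave an adjusted P, DESeq2 called 3211 lower and 2699 higher. The log2 fold-change was below 0 for 9 of the 10 genes, with a median of -0.33, against 8273 of 16976 genes and a median of 0.01 over all genes tested. Ptpn5 and Agap2 fell most among the well-counted genes. App and Gsk3a fell by smaller amounts, and Dgkk and Timp1 fell at low counts. Gsk3b, Pik3cb and Bmpr2 had intervals that included 0, and Mmp9 missed the threshold.

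**Figure D1:**
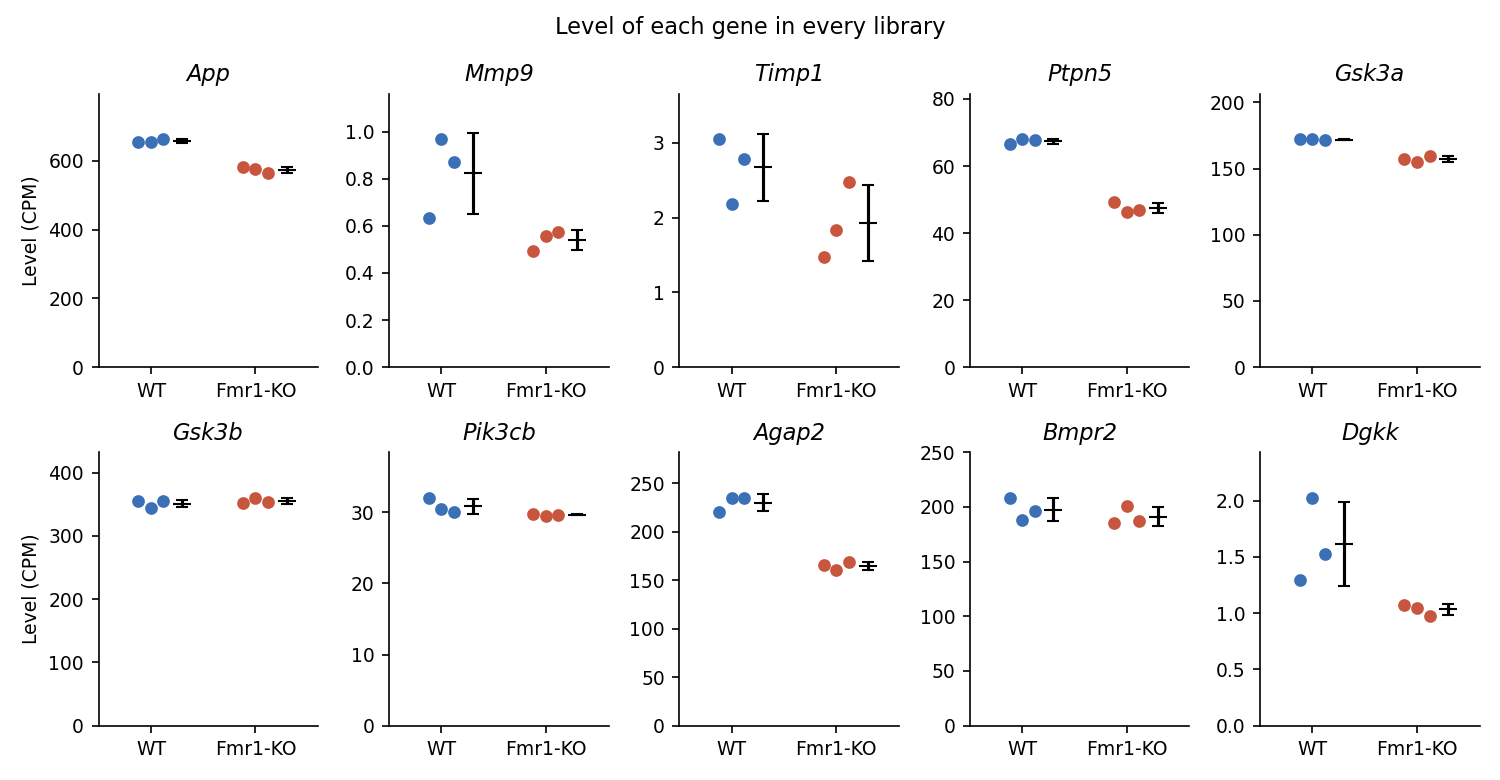
Level of each gene in CPM (y axis, from 0) in the 3 WT (blue) and 3 Fmr1-KO (red) libraries, 1 point per library in the order of replicate number, with the mean and SD beside them in black. Ptpn5, Agap2, App and Gsk3a show tight groups that are apart, while the points of Timp1, Gsk3b and Bmpr2 overlap between genotypes.

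Ptpn5 encodes STEP, a neuronal tyrosine phosphatase that acts on ERK, Fyn, Pyk2 and glutamate receptors and opposes synaptic strengthening. It lies on the minus strand of chromosome 7, from 47077795 to 47133684 in GRCm38. Its level was 66.5, 68.0 and 67.7 CPM in WT replicates 1, 2 and 3, and 49.3, 46.4 and 46.9 CPM in the Fmr1-KO replicates. The highest Fmr1-KO library was well below the lowest WT library, and the spread within each genotype was small. The mean fell from 67.4 ± 0.791 to 47.5 ± 1.52 CPM (SD, n = 3 each), 29.5% below WT. On the log2 scale Ptpn5 fell by 0.50 (SE 0.04), at an adjusted P of 1.04e-09 in edgeR.

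The genes listed with STEP were mostly lower as well. So were 11 of the 12 neuronal markers, with a median log2 fold-change of -0.64, and their part in these values was not tested. Of the 12 genes listed with STEP, 9 (75.0%) were lower and 1 (8.33%) was higher, against 21.9% and 20.7% of all genes. The list holds relatives and substrates of STEP. It also holds Ppp3ca (-0.37), Ppp3cb (-0.32) and Ppp1r1b, which are neither and were all called lower. The median log2 fold-change of this list was -0.38. Ptk2b, which encodes the STEP substrate Pyk2, had a log2 fold-change of -1.26, and Ppp1r1b, which encodes DARPP-32, a regulator of protein phosphatase 1, had one of -0.91. Mapk3 (ERK1), Fyn and Grin2b, an NMDA receptor subunit, were lower, with log2 fold-changes of -0.45, -0.38 and -0.48. Gria2, which encodes an AMPA receptor subunit, was the one gene of this list called higher, at 0.23, but its libraries overlapped between genotypes and DESeq2 did not call it (adjusted P 0.154).

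Agap2 encodes PIKE, a GTPase that binds and activates PI3K and links it to group 1 metabotropic glutamate receptors, and Pik3cb encodes p110β, a catalytic subunit of PI3K. Both mRNAs have been studied as FMRP targets whose protein products act in the same complex. Agap2 lies on chromosome 10, plus strand, from 127075284 to 127093169. It was at 220.4, 235 and 235 CPM in the WT libraries and at 166, 160.3 and 169 CPM in Fmr1-KO. No Fmr1-KO library came near the WT range. The mean was 230.01 ± 8.29 CPM in WT and 164.8 ± 4.24 CPM in Fmr1-KO (SD, n = 3 each), 28.3% lower, with a log2 fold-change of -0.48 (SE 0.03, adjusted P 2.16e-10 in edgeR).

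Pik3cb, on the minus strand of chromosome 9 from 99036654 to 99140621, gave a different result. Its WT libraries had 32.1, 30.4 and 30.1 CPM and its Fmr1-KO libraries 29.8, 29.6 and 29.7 CPM. The Fmr1-KO values all lay just under the lowest WT value, but the gap was small beside the spread of WT. The log2 fold-change was -0.06, with a 95% interval from -0.16 to 0.05 (adjusted P 0.378 in edgeR), so that a fall of the size seen for Agap2 was outside the interval. Among the catalytic subunits of class I PI3K, Pik3cb held 21.8% ± 0.583 of the counts per kb of exon in WT and 21.4% ± 0.429 in Fmr1-KO (SD, n = 3 each). The shares overlapped, and an exact 2-sided permutation test gave P = 0.5. Of the other catalytic subunits, Pik3cd was lower (-0.48), and Pik3cg was at 0.04 and did not pass. Pik3ca was called higher at 0.09, but DESeq2 did not call it (adjusted P 0.0799), and the call was lost without WT replicate 1, 2 or 3 or Fmr1-KO replicate 2 or 3. Over the 19 PI3K subunits and counterparts, 11 (57.9%) were lower and 2 were higher, against 21.9% and 20.7% of all genes. The median of this list was -0.12. The regulatory subunit Pik3r3 was higher by 0.20, and Inpp5d, which encodes SHIP1, a phosphatase of blood lineage cells and microglia that removes the PI3K product, was lower by -0.52. The summed microglia markers were 213 to 235 CPM in WT and 122 to 137 in Fmr1-KO, and their part in the Inpp5d and Pik3cd values was not tested.

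Gsk3a and Gsk3b encode the paralogous kinases GSK3α and GSK3β, which are inhibited by AKT downstream of PI3K and are the targets of lithium. Gsk3a (chromosome 7, minus strand, 25228258 to 25237851) was at 172.3, 172.1 and 171 CPM in WT and at 158, 155 and 159.8 CPM in Fmr1-KO. WT libraries were within 1 CPM of each other and above every Fmr1-KO library. The mean fell from 171.9 ± 0.497 to 157.5 ± 2.39 CPM (SD, n = 3 each), 8.40% below WT, with a log2 fold-change of -0.13 (SE 0.03, adjusted P 0.00177 in edgeR). An antisense gene, 9130221H12Rik, shares 820 exon bases with Gsk3a. The authors counted by strand, and that antisense gene was at 0.00 on the log2 scale (adjusted P 0.994, edgeR).

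Gsk3b (chromosome 16, plus strand, 38089001 to 38246084) had 355, 344 and 355 CPM in WT and 352, 361 and 354 CPM in Fmr1-KO. The genotypes overlapped, and the log2 fold-change of 0.02 had a 95% interval from -0.04 to 0.08 (adjusted P 0.672 in edgeR). A fall as large as that of Gsk3a lay outside this interval. The share of Gsk3a in the sum of both paralogs, per kb of exon, was 62.2%, 62.9% and 62.1% in WT and 60.3%, 59.3% and 60.5% in Fmr1-KO. All Fmr1-KO shares lay below all WT shares. The difference in means was -2.37 percentage points (62.4% ± 0.443 against 60.02% ± 0.632, SD, n = 3 each), with an exact permutation P = 0.1, the smallest that 3 against 3 libraries allow. Adjusted over the 5 gene families examined, P was 0.167 by the exact permutation test.

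Among 17 regulators and substrates of GSK3, 3 (17.6%) were lower and 5 (29.4%) were higher, against 21.9% and 20.7% of all genes. The median of this list was 0.03. Myc, which encodes a substrate of GSK3, was lower at -0.30. Nfatc4, a transcription factor that GSK3 phosphorylates, was higher at 0.69, and Frat2, which encodes a GSK3-binding protein, was higher at 0.36.

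**Figure D2:**
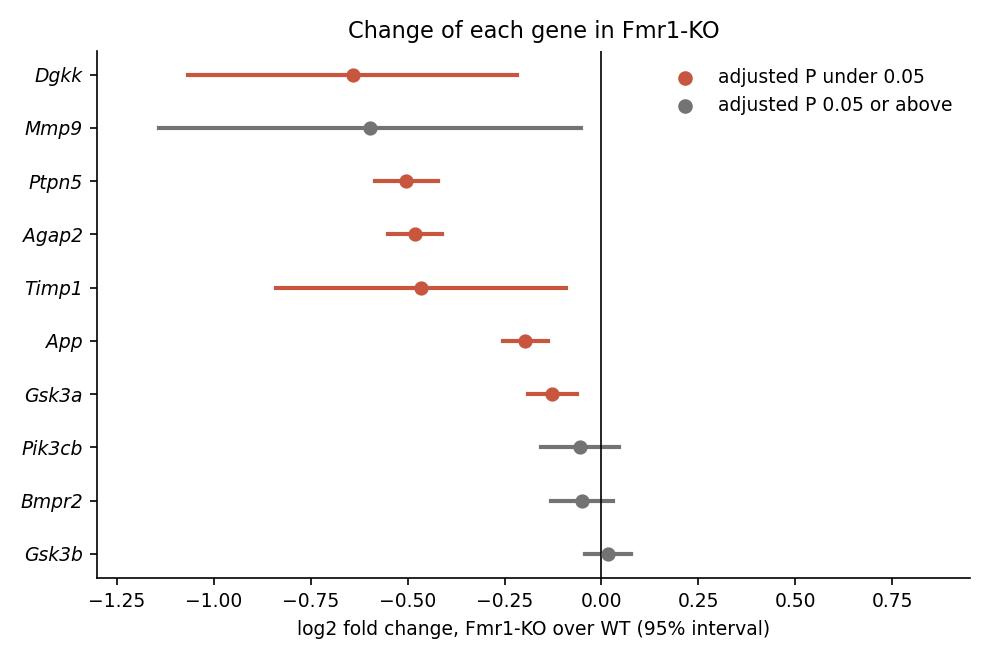
The log2 fold-change of each gene, Fmr1-KO over WT (x axis), with its 95% interval as a line. Red marks an adjusted P under 0.05 by edgeR and grey the remainder. Ptpn5 and Agap2 have narrow intervals near -0.5, and those of Dgkk, Mmp9 and Timp1 are several times wider.

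App encodes the amyloid precursor protein, a membrane protein that is cut by α-, β- and γ-secretases. Its gene is on the minus strand of chromosome 16, from 84949685 to 85173766. The WT libraries had 654, 657 and 664 CPM, and the Fmr1-KO libraries had 583, 575 and 565 CPM. The libraries of each genotype were close together, and the genotypes did not overlap. The mean fell from 658 ± 4.78 to 574 ± 8.88 CPM (SD, n = 3 each), 12.7% below WT, with a log2 fold-change of -0.20 (SE 0.03 and adjusted P 5.44e-06 in edgeR). Of its paralogs, Aplp1 was lower at -0.36, and Aplp2 had a log2 fold-change of 0.03 and did not pass. The share of App in the 3 genes per kb of exon was 19.2% ± 0.0453 in WT and 19.5% ± 0.421 in Fmr1-KO (SD, n = 3 each) with an exact permutation P = 0.4. This share depended on how length was treated: the difference was 0.32 percentage points per kb of exon and -0.58 points when counts were not divided by length.

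Of the 22 paralogs, secretase genes and binding partners of App, 7 (31.8%) were lower and 1 (4.55%) was higher. Of all genes, 21.9% were lower and 20.7% higher. The median of the list was -0.03. Bace1, the β-secretase, was lower at -0.38. Apba1, which encodes the synaptic adaptor Mint1 that binds the tail of App, was lower at -0.96. Sorl1, a sorting receptor that directs App away from cleavage, was higher at 0.14.

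Mmp9 encodes matrix metalloproteinase-9, which cuts extracellular matrix around synapses, and Timp1 encodes its secreted inhibitor. Both were rare in these cultures. Mmp9 (chromosome 2, plus strand, 164940780 to 164955850) had 22, 32 and 29 counts in WT and 16, 17 and 20 counts in Fmr1-KO. In CPM it was at 0.633, 0.968 and 0.869 in WT and 0.492, 0.555 and 0.575 in Fmr1-KO. These levels did not overlap, but the lowest WT library was close to the highest Fmr1-KO library. The log2 fold-change was -0.60 (SE 0.26) with a 95% interval from -1.14 to -0.05, and the adjusted P of 0.0716 by edgeR missed the threshold. It passed without WT replicate 1 (-0.76, adjusted P 0.0401 in edgeR). Neutrophils, a rich source of this protease, were near absent by their markers: none of the 7 had enough counts to be tested, Ly6g was at 0 in every library, and the summed level was 0.313 to 0.718 CPM in WT and 0.0579 to 0.155 in Fmr1-KO. The microglia markers, which also moved, are given above, and their part in the Mmp9 level was not tested.

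Timp1 (chromosome X, plus strand, 20870166 to 20874735) lies within the span of Syn1, which is transcribed from the other strand and shares 0 exon bases with it. Its libraries held 106, 72 and 93 counts in WT and 48, 56 and 86 counts in Fmr1-KO, or 3.05, 2.18 and 2.79 CPM against 1.48, 1.83 and 2.47 CPM. The third Fmr1-KO library was above the second WT library, so the genotypes overlapped. The mean was 2.67 ± 0.447 CPM in WT and 1.93 ± 0.505 CPM in Fmr1-KO (SD, n = 3 each), and the log2 fold-change of -0.47 (SE 0.18) just passed, at an adjusted P of 0.0415 by edgeR. The call was lost with DESeq2 (adjusted P 0.113) and with library totals in place of TMM (adjusted P 0.0533 in edgeR). It was also lost without WT replicate 1 (-0.36) or WT replicate 3 (-0.44), and without Fmr1-KO replicate 1 (-0.31) or Fmr1-KO replicate 2 (-0.43). Syn1, a synaptic vesicle gene, was itself lower, at -0.58, and its part in the Timp1 count was not tested.

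The ratio of Mmp9 to Timp1 counts, of protease to inhibitor mRNA, was 0.208, 0.444 and 0.312 in WT and 0.333, 0.304 and 0.233 in Fmr1-KO. The genotypes overlapped, with an exact 2-sided permutation P = 0.8, and counts this low leave the ratio poorly determined. Of 19 other metalloproteinases, inhibitors and matrix substrates tested, 7 (36.8%) were lower and 5 (26.3%) were higher, against 21.9% and 20.7% of all genes. The median of this list was 0.02. Mmp14, a membrane-bound protease that activates Mmp2, was higher at 0.37, and Mmp2 was higher at 0.29. Timp4, another inhibitor, was lower at -1.39, and Acan, which encodes the matrix proteoglycan aggrecan of perineuronal nets, was lower at -1.03. Markers of fibroblasts and mural cells, which make several of these proteins, were also split, with 6 of 10 lower, 3 higher (Acta2, Tagln and Pdgfrb) and a median of -0.28, although their sum was 722 to 791 CPM in WT and 902 to 955 CPM in Fmr1-KO, and their part in the Mmp2 and Mmp14 values was not tested.

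Bmpr2 encodes the type II receptor for bone morphogenetic proteins (BMPs), which signals through SMADs and, by its long tail, through LIMK1 to the actin cytoskeleton of dendrites. It lies on the plus strand of chromosome 1, from 59763400 to 59879014. The WT libraries had 208, 188 and 196 CPM and the Fmr1-KO libraries 185, 200.8 and 187 CPM. The genotypes overlapped, and the log2 fold-change was -0.05 with a 95% interval from -0.13 to 0.03 (adjusted P 0.324 in edgeR). Bmpr2 made up 40.5%, 39.6% and 40.5% of the counts per kb of the 3 type II receptors that bind BMPs in WT and 38.6%, 38.7% and 38.2% in Fmr1-KO. The shares did not overlap, and the means differed by -1.73 percentage points (40.2% ± 0.503 against 38.5% ± 0.271, SD, n = 3 each). The exact permutation P was 0.1, the smallest possible, and 0.167 after adjustment. Acvr2b rose by 0.38 on the log2 scale, and Acvr2a had a log2 fold-change of -0.01 and did not pass.

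Around the receptor, 15 of 32 BMP ligands, receptors, inhibitors and targets (46.9%) were lower and 6 (18.8%) were higher. Of all genes, 21.9% were lower and 20.7% higher. The median of the list was -0.15. Among the ligands, Bmp3 (-1.36), Bmp2 (-0.92) and Bmp4 (-0.61) were lower and Bmp6 (0.88) was higher. Grem1, a secreted BMP inhibitor, was higher at 1.21, from 2.40 to 5.56 CPM, whereas Fst, another inhibitor, was lower at -0.87. The type I receptor gene Acvrl1, typical of endothelium, was lower at -1.05 from a low level of 1.65 CPM. Endothelial markers were split: of 5 with enough counts, Kdr (1.23) and Flt1 (0.41) were higher and Cdh5 (-0.66) was lower, and their sum, 11.6 to 15.4 CPM in WT and 21.8 to 24.0 CPM in Fmr1-KO, differed mostly through Kdr. Their part in the Acvrl1 value was not tested. Id1 and Id3, transcription factor genes that BMP signalling induces, were lower, with log2 fold-changes of -0.79 and -0.91. Of the other Id genes, Id2 was lower by a small amount (-0.09) and Id4 was higher (0.18).

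Dgkk encodes diacylglycerol kinase κ, which converts diacylglycerol into phosphatidic acid and has been studied as a main mRNA partner of FMRP. The gene is X-linked (plus strand, 6779306 to 6948363 of chromosome X). It had 45, 67 and 51 counts in WT and 35, 32 and 34 counts in Fmr1-KO, or 1.29, 2.03 and 1.53 CPM against 1.08, 1.05 and 0.977 CPM. All Fmr1-KO libraries were below all WT libraries, and the WT libraries varied more. The mean fell from 1.62 ± 0.374 to 1.03 ± 0.0507 CPM (SD, n = 3 each), with a log2 fold-change of -0.64 (SE 0.20, 95% interval -1.07 to -0.22, adjusted P 0.0148 in edgeR). The call was lost with DESeq2 (adjusted P 0.0726), without WT replicate 2 (-0.45, edgeR adjusted P 0.108) and if Fmr1-KO replicate 3 was omitted (-0.60, edgeR adjusted P 0.0508).

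Dgkk and Timp1 are both X-linked, and the sex of the pups was not labelled. Xist, the RNA of the inactive X chromosome, had 10854, 10135 and 9935 counts in WT and 26827, 31131 and 31491 counts in Fmr1-KO, a log2 fold-change of 1.58. Of 4 Y-linked genes, Ddx3y (-0.28), Eif2s3y (-0.47) and Kdm5d (-0.15) were lower, and Uty (-0.20) did not pass. The part of this difference in the Dgkk and Timp1 values was not tested.

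Within its family, Dgkk was a minor member. It held 0.287%, 0.454% and 0.332% of the counts per kb of 10 diacylglycerol kinases in WT and 0.266%, 0.253% and 0.242% in Fmr1-KO. The genotypes did not overlap (0.357% ± 0.0865 against 0.254% ± 0.0115, SD, n = 3 each), with an exact permutation P = 0.1, the smallest possible, and 0.167 after adjustment. Dgkg (-1.07) and Dgkh (-0.79) were lower by more than Dgkk on the log2 scale, and Dgkd (-0.19), Dgke (-0.16) and Dgki (-0.19) were lower by less. Dgkb was higher at 0.23, a call lost without Fmr1-KO replicate 2 (0.16, adjusted P 0.0525 in edgeR). Dgka (0.03), Dgkq (-0.04) and Dgkz (-0.07) did not pass. With the phospholipases, lipases and protein kinases C that make or sense diacylglycerol, 12 of 20 genes (60.0%) were lower and 1 (5.00%) was higher. Of all genes, 21.9% were lower and 20.7% higher. The median of the list was -0.19.

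**Figure D3:**
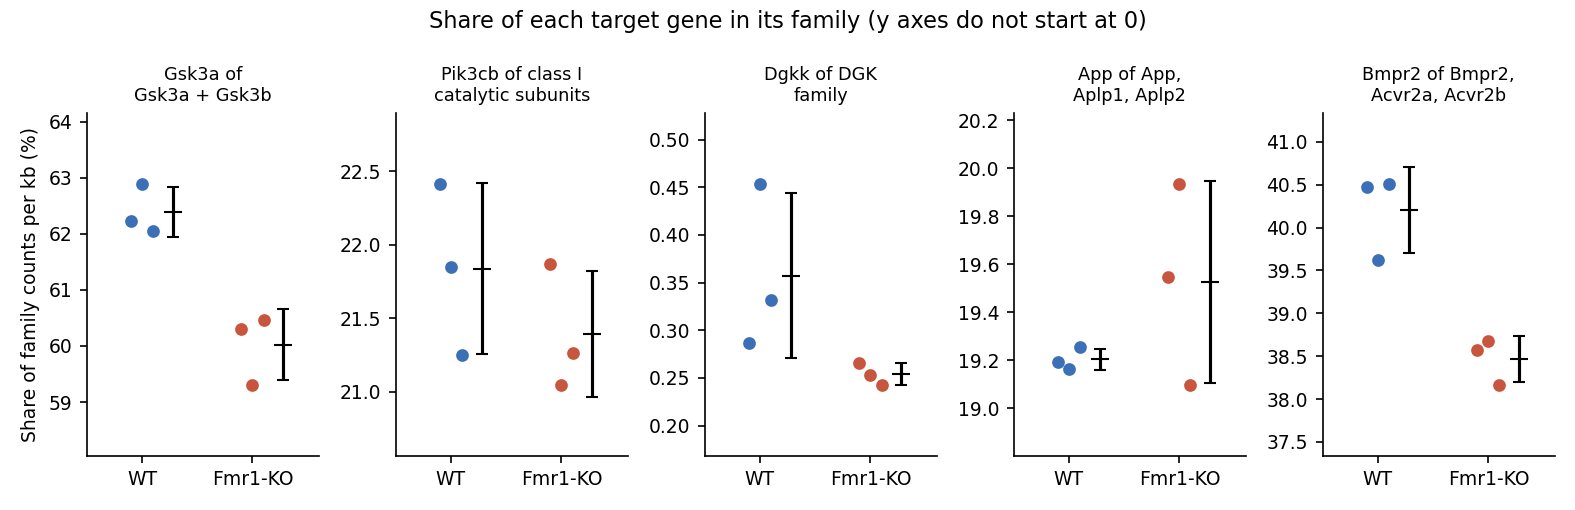
Share of Gsk3a, Pik3cb, Dgkk, App and Bmpr2 in the summed counts per kb of exon of their families, in percent (y axes do not start at 0), in WT (blue) and Fmr1-KO (red) libraries with the mean and SD in black. The shares of Gsk3a, Dgkk and Bmpr2 are lower in all 3 Fmr1-KO libraries, and those of Pik3cb and App overlap.

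Over the 7 lists together, 64 of 141 partners tested (45.4%) were lower and 21 (14.9%) were higher, with a median log2 fold-change of -0.10. Among the 10763 tested genes that averaged 10 CPM or more, 26.2% were lower and 24.7% were higher. The lists of STEP, PI3K and diacylglycerol kinase partners held the highest shares called lower, 75.0%, 57.9% and 60.0%, and those of GSK3 and of metalloproteinases were split between directions.

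**Figure D4:**
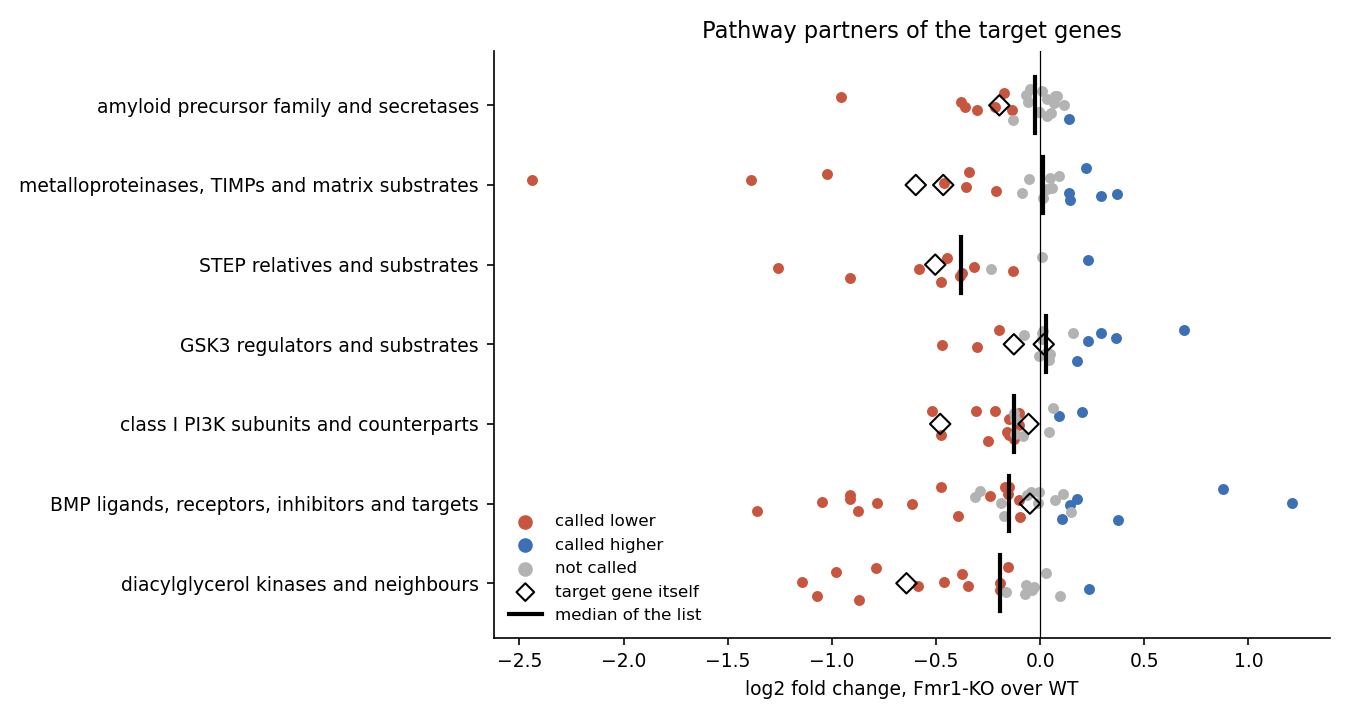
The log2 fold-change, Fmr1-KO over WT (x axis), of 141 partners in 7 lists (rows), with red for called lower, blue for called higher, grey for not called, a black bar for the median of the list and open diamonds for the target genes. The median lies at -0.38 for the STEP list and between -0.19 and 0.03 for the other lists.

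Compared per kb of exon, the levels in WT ran in the order Gsk3a (59.3 CPM per kb), App (50.6), Agap2 (38.7), Gsk3b (35.7), Ptpn5 (11.6), Bmpr2 (11.0), Pik3cb (4.29), Timp1 (3.01), Mmp9 (0.233) and Dgkk (0.226). Neighbours in this order did not overlap between libraries, except Ptpn5 with Bmpr2 and Mmp9 with Dgkk. In Fmr1-KO, Gsk3b (36.2 CPM per kb) stood above Agap2 (27.7), and Bmpr2 (10.6) above Ptpn5 (8.20), both without overlap. With the length of the longest transcript in place of all exons, App came first, though it overlapped Gsk3a in Fmr1-KO. By that length Gsk3b stood above Agap2 already in WT (42.3 against 40.8 CPM per kb), with overlap, so their order did not change between genotypes. The levels of Bmpr2 and Ptpn5 overlapped in Fmr1-KO. The ratio of Agap2 to Gsk3b counts within a library needs neither length nor scaling, and was chosen after the levels had been seen. It was 0.622, 0.683 and 0.660 in WT and 0.471, 0.444 and 0.476 in Fmr1-KO. Agap2 was thus lower relative to Gsk3b in all 3 Fmr1-KO libraries (exact 2-sided permutation P = 0.1, the smallest possible). This separation followed from the levels already seen, so the P value adds no further evidence.

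Because 11 of 12 neuronal markers were lower, the libraries were also scaled to the summed counts of those markers, an alternative chosen after seeing the data. This moved the median of all genes to 0.23 on the log2 scale, and of 16976 genes 10151 were called higher and 1437 lower. Dcx (0.08), Map2 (-0.11) and Tubb3 (-0.28), which changed less than the median marker (-0.64), make up most of that sum. Of the 12 markers, 8 had a lower log2 fold-change than Ptpn5 and Agap2. Relative to the summed markers, Ptpn5 (-0.28) and Agap2 (-0.25) were still called lower, at adjusted P of 4.85e-06 and 1.35e-06 by edgeR. App, at 0.03, did not pass. Dgkk (-0.42), Mmp9 (-0.37) and Timp1 (-0.24) stayed below 0 without passing. Gsk3a (0.10), Gsk3b (0.24), Pik3cb (0.17) and Bmpr2 (0.18) were called higher, and of these only Gsk3b lay above the shift of the median of all genes. The direction for App, Gsk3a, Pik3cb and Bmpr2 therefore depended on what the libraries were scaled to. Scaling to the typical marker in place of the sum was not run, and Ptpn5, Agap2 and Timp1 were not lower than most neuronal markers.

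**Figure D5:**
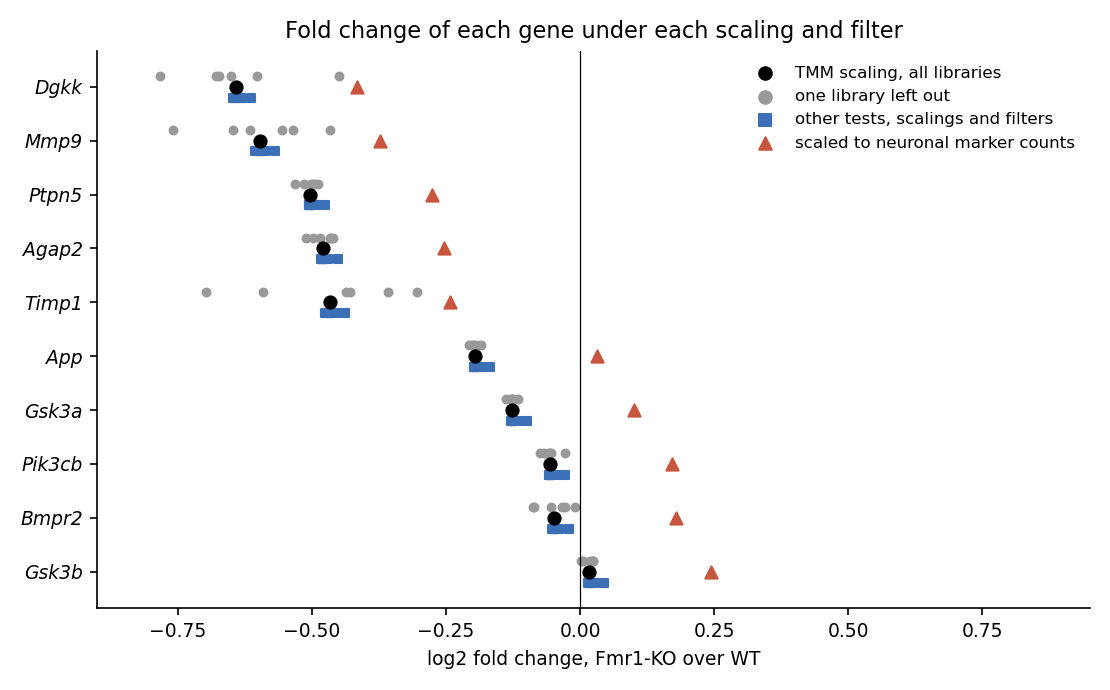
The log2 fold-change of each gene, Fmr1-KO over WT (x axis), with TMM scaling (black), with each library left out in turn (grey), under the other tests, scalings, filters and the replicate block (blue) and scaled to the summed neuronal markers (red triangles). The red triangles are shifted to the right for every gene and cross 0 for App, Gsk3a, Pik3cb and Bmpr2, while Timp1, Mmp9 and Dgkk spread most when libraries are left out.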

How the data were processed

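The authors deposited raw counts per gene for 3 WT and 3 Fmr1-KO libraries, with no normalization. According to their methods and processing notes, 100-base single-end reads from a stranded library kit went through FastP trimming, STAR alignment to GRCm38 (2.7.6a in the notes) and reverse-stranded assignment to exons by gene name (featureCounts of Subread 2.0.1 in the notes), which keeps antisense genes apart but does not separate isoforms. Of 55367 rows, 31650 had a count and 0 lacked a gene name.

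The fit used edgeR 4.0.16 in R 4.3.3 (filterByExpr with a minimum count of 10, TMM, glmQLFit, glmQLFTest, 2-sided) with genotype as the term and Benjamini-Hochberg adjustment over all 16976 tested genes, and it was tested on simulated data. The threshold was an adjusted P under 0.05. DESeq2 1.42.0, RLE and upper-quartile normalization, library totals, no filter, a filter at 10 counts and 5 CPM on average, the replicate block, a minimum fold change of 1.2 and leaving out each library were alternatives, and scaling to neuronal markers was added after seeing the data. Shares and ratios were compared by exact permutation tests in scipy 1.17.1. Positions, exon lengths and coding sequences came from GENCODE M21, in which 98.6% of tested names were found.

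The 10 genes, the partner lists and the marker lists were chosen with earlier results of these data known. Named partners are the members of the 5 families and, in each list, the 2 called genes with the largest change in each direction among those with a mean of at least 1 CPM, except that 2 genes this rule selects are not reported here. Mapk3, Fyn, Grin2b, Bmp2, Bmp4, Fst, Id1, Id2, Id3 and Id4 were added after their values were seen. Same-numbered replicates did not deviate together (correlations of -0.05, 0.05 and 0.00), so the numbers were not treated as pairs. The spread within a genotype exceeded counting noise.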

Additional observations from a re-analysis of the deposited data

How the results depend on the processing

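The count of target genes called lower was 6 and stayed within 4 to 6 under DESeq2, the other normalizations, both filters and the replicate block (6), and within 5 to 6 when each library was left out. The replicate block changed none of these calls. No paired reading is made, since the numbers did not pair the libraries. Under a minimum fold change of 1.2, 2 target genes (Ptpn5, Agap2), 32 partners lower and 4 partners higher were called, in place of 6, 64 and 21, which a demand for larger changes brings about. Under the stricter filter Mmp9, Timp1 and Dgkk were not tested. Scaled to the neuronal markers, 2 target genes and 35 partners were lower, and 4 target genes and 72 partners were higher. Among all 16976 genes tested, that scaling called 1437 lower and 10151 higher. With that scaling the log2 fold-change changed sign for App (0.031), Gsk3a (0.10), Pik3cb (0.17), Bmpr2 (0.18), Acvr2a (0.22), Dgkd (0.035), Dgke (0.070), Dgki (0.033), Dgkq (0.19) and Dgkz (0.16), by the construction of the scaling. Values near 0 also changed sign for Acvr2a with library totals (0.016), and when 1 library was left out for Acvr2a (-0.029 to 0.016, above 0 if WT replicate 1 or Fmr1-KO replicate 1 was omitted), Dgka (-0.057 to 0.14, below 0 without WT replicate 3), Dgkq (-0.12 to 0.00046, above 0 without Fmr1-KO replicate 3) and Pik3cg (-0.0085 to 0.10, below 0 without WT replicate 2), none of which passed the test. The App share turned to -0.58 percentage points with no division by length, since App has the longest annotated exons of its family (13.0 kb, against 3.02 kb for Aplp1 and 5.88 kb for Aplp2), and 39 of 40 alternative values of the 5 shares kept their direction. Across all genes, DESeq2 called 3211 lower and 2699 higher, library totals 3212 and 4207, and the minimum fold change 1340 and 883, against 3725 and 3506. Mmp9, Timp1 and Dgkk had at most 106 counts in a library, which limits the precision of their changes.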

Other observations

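For the 2 target genes called lower with a log2 fold-change beyond 0.5 in size, the genes with the most similar pattern over the 6 libraries were looked for. The measure was Pearson's r of log2 CPM, among genes averaging 10 CPM or more, as a description. It compares neither the level nor the size of the change. Ptpn5 was closest to Gpr37l1 (r = 0.9998), a receptor gene of astrocytes with a log2 fold-change of -0.82, and to Rasgrp2 (r = 0.9994), which encodes an activator of the GTPase Rap1 and had a log2 fold-change of -1.28. Dgkk was closest to Srcin1 (r = 0.997), a synaptic scaffold gene at -0.12, and to Ccdc28b (r = 0.993), at -0.08, which did not pass the test. The 6 points share a genotype difference, so a high r mostly describes that difference.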
